A study of Homo sapiens with 18 samples.

Results

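The metallothionein genes MT1E, MT1F, MT1G, MT1M, MT1X and MT2A and the gene of the transcription factor MTF1 were described across 18 RNA-seq libraries of SW620 cells, a human colon cancer line. They are 7 of the 26485 genes in the deposited counts, taken by symbol from a named list. The cells received a scramble siRNA or siLonp1, which targets LONP1, the AAA+ protease of the mitochondrial matrix. Each siRNA was combined with 3 conditions, namely 37 °C throughout (Ctrl), heating at 42 °C for 1 h (HS), and the same heating plus recovery at 37 °C for 1 h (HS+REC). Each of the 6 groups has 3 libraries. The study's methods describe 3 independent biological replicates, all from a single cell line under transient silencing, and do not say which of the LONP1 siRNAs they list was used for RNA-seq.

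Metallothioneins are small, cysteine-rich proteins of the cytosol and nucleus that bind zinc, copper and cadmium. MTF1 is a zinc-finger factor that senses free zinc, enters the nucleus and binds metal response elements (MREs) in the promoters of metallothionein genes and of the zinc exporter gene SLC30A1. In the intestinal epithelium, metallothioneins take part in holding absorbed zinc and copper, and their genes also respond to glucocorticoids and oxidants.

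The 6 metallothionein genes lay in 1 cluster on chromosome 16, with other metallothionein genes among them, between positions 56608584 and 56684196 of hg38, a span of 75.6 kb. In GENCODE release 44, MT2A opened the row at 56608584 to 56609497, followed by MT1E at 56625475 to 56627112, MT1M at 56632659 to 56633981, MT1F at 56657731 to 56660698, MT1G at 56666730 to 56668065 and MT1X at 56682470 to 56684196. MT1G was annotated on the minus strand and the other 5 on the plus strand. MTF1 lay on the minus strand of chromosome 1, at 37809574 to 37859592. All 7 genes are protein-coding, and featureCounts assigned reads to their exons.

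The promoters of MT2A, MT1X and MTF1 are shown because MTF1 is known to act through MREs. The promoters used here, from RefSeq on GRCh38.p14, matched 3 of the 7 genes by symbol, and those of MT1E, MT1F, MT1G and MT1M are not shown. Each line gives the 250 bases before the start site, 5′ to 3′ on the strand of the gene, with matches to the MRE core (TGCACNC or TGCGCNC, on either strand) in capitals. The windows are chr16:56608334-56608583 on the plus strand for MT2A, chr16:56682220-56682469 on the plus strand for MT1X and chr1:37859593-37859842 on the minus strand for MTF1.
MT2A: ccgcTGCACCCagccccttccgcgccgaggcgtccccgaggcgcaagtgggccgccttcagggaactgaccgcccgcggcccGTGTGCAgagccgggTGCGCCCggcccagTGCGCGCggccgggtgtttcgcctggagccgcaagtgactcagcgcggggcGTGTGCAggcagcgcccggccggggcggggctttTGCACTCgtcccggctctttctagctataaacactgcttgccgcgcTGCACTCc
MT1X: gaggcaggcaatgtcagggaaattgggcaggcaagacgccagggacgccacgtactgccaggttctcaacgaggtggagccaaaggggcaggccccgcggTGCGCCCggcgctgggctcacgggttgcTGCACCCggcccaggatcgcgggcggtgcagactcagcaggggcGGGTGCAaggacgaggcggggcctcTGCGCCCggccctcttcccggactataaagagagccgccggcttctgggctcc
MTF1: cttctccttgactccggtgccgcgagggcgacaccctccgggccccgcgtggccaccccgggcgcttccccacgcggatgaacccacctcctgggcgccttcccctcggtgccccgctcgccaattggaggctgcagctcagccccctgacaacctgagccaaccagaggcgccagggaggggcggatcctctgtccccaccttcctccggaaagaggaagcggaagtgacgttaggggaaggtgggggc

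The MT2A window held 7 MRE core matches, from base -246 to base -2 relative to the start site, and the MT1X window held 4, from base -150 to base -47. At least 1 match was present in 24.8% of 35116 promoter windows of the same length. Only 0.0313% of the windows held as many as that of MT2A, and 0.37% as many as that of MT1X. The MTF1 window held 0. A TATA box (TATAAA, on either strand, with no base shared with an MRE match) began 29 bases before the start of MT2A and 30 bases before that of MT1X, against a share of 10.7% of all windows with one. A pair of heat shock element units (GAANNTTC or TTCNNGAA, on either strand), the motif that heat shock factors read, was found in none of the 3 windows and in 11.6% of all windows. These matches describe letters in the sequence and do not show that a factor was bound.

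Total counts ran from 30815860 in HS scramble replicate 3 to 47279297, so that 3 counts corresponded to 0.0631 to 0.0948 CPM (counts scaled to library size and TMM factors). LONP1 ranged from 197 to 233 CPM in the scramble libraries and from 11.5 to 28.9 CPM in the siLonp1 libraries. DNAJB1, a heat-induced co-chaperone gene, stood at 228 to 290.2 CPM in the unheated libraries and at 4836 to 7543 CPM in all heated ones. Of 7 colon epithelium markers, EPCAM, KRT8, KRT18, CDH1, CDX2 and VIL1 had at least 9.97 CPM in every library, while KRT20, a marker of differentiated colonocytes, had at most 1.25 CPM. Among the markers of other cell types, COL3A1 was at 0 counts in all libraries, the leukocyte marker PTPRC had at most 3 counts and the endothelial marker PECAM1 at most 0.432 CPM, whereas COL1A1 reached 7.995 to 34.6 CPM. In such bulk samples, fewer cells with a transcript and less of the transcript per cell cannot be told apart.

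All 7 genes passed the filter for testing, a CPM above 1 in at least 3 libraries. MT1M passed only through the 3 HS+REC siLonp1 libraries and was therefore left out of every count over the metallothioneins, which covers the other 5 genes. Its differences are given as values with no test, since it passed through the group where it was highest. These 5 and MTF1 were above 1 CPM in all 18 libraries. Metallothionein mRNAs resemble each other. Of the 50-base windows of each reference mRNA, 6.12% for MT1F, 10.3% for MT1E, 11.1% for MT2A, 14.6% for MT1M and 19.9% for MT1G also occurred in the transcripts of another gene. MT1X had 51% of such windows, most of them (117 of 181) shared with an overlapping long non-coding RNA on its own strand, and MTF1 had 0.647%. How reads with several placements and the strand were treated in counting is not given in the sources used here, so the division of reads among the MT1 genes is uncertain.

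Per kilobase of mRNA, MT2A was the most abundant member in every group, followed by MT1X, MT1E and MT1G. In unheated scramble cells, MT2A averaged 284 ± 13.8 CPM per kb (SD, n = 3), MT1X 90.2 ± 6.61, MT1E 25.3 ± 1.58 and MT1G 24.3 ± 1.94. MT1E and MT1G were thus within their spread of each other in that group. MT1F reached 4.47 ± 1.08 CPM per kb there, MTF1 3.87 ± 0.214 and MT1M 0.479 ± 0.155, so that MT1F and MTF1 were also within their spread. In both HS groups the mean of MTF1 was above that of MT1F, with 7.85 ± 0.551 against 3.89 ± 0.871 CPM per kb in scramble cells. In HS siLonp1 cells the values were 8.76 ± 0.421 and 8.46 ± 0.971 CPM per kb, within their spread, and the order of the group means over the 7 genes held in 2 of 3 libraries. The summed level of the 6 metallothioneins was 181 ± 10.4 CPM in Ctrl scramble, 332 ± 19.9 in Ctrl siLonp1, 202 ± 12.1 in HS scramble, 453 ± 50 in HS siLonp1, 372 ± 13.8 in HS+REC scramble and 802 ± 58.1 in HS+REC siLonp1. MT2A made up a mean of 62.9% to 74.5% of that sum.

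**Figure D1:**
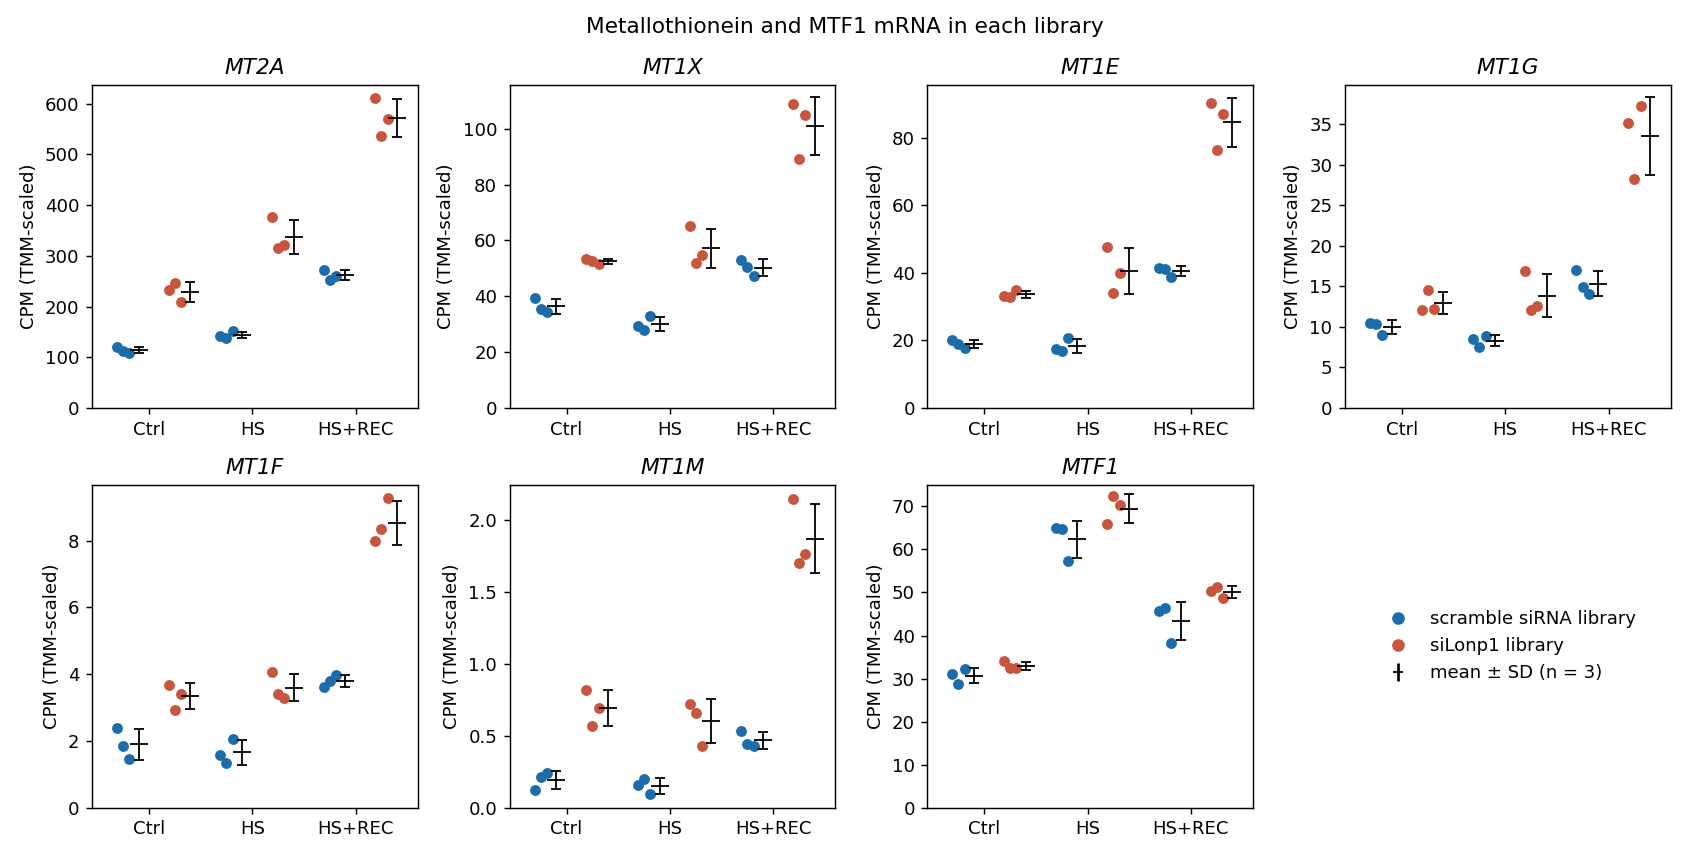
Each panel shows 1 gene on its own scale, with CPM (TMM-scaled) on the y axis and the 3 conditions on the x axis; points are single libraries (blue scramble, red siLonp1) and bars give the mean ± SD of 3. In the 6 metallothionein panels the HS+REC siLonp1 libraries lie above all others (537 to 612 CPM for MT2A), while in the MTF1 panel the HS libraries are highest.

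The first comparison asked what LONP1 silencing did in cells that had not been heated. Metallothionein mRNAs were higher with siLonp1, while the difference in MTF1 mRNA did not pass the test. MT2A, the major metallothionein, had 120.0, 113 and 109 CPM in the Ctrl scramble libraries and 232, 247 and 208 CPM in the Ctrl siLonp1 libraries. The groups did not overlap, and MT2A was 2.01-fold higher, a log2 change of 1.01 ± 0.07 (SE; quasi-likelihood test of edgeR, Benjamini-Hochberg adjusted p = 1.7e-10). That value sat at the 2-fold limit and passed it in 6 of 13 other settings, while the adjusted p passed 0.05 in all 13. MT1E had 20.04, 19.0 and 17.7 CPM against 33.2, 33.0 and 34.9 CPM, a log2 change of 0.83 ± 0.10 (edgeR, adjusted p = 3e-07). MT1X had 39.4, 35.6 and 34.3 CPM against 53.3, 52.6 and 51.7 CPM, a log2 change of 0.53 ± 0.09 (edgeR, adjusted p = 2.5e-05). In both genes the lowest silenced library was above the highest scramble library. MT1F, a less abundant member, had 2.38, 1.85 and 1.47 CPM against 3.69, 2.94 and 3.42 CPM, a log2 change of 0.82 ± 0.16 (edgeR, adjusted p = 0.0002). MT1G had 10.5, 10.4 and 9.03 CPM against 12.04, 14.5 and 12.2 CPM, a log2 change of 0.38 ± 0.13 (edgeR, adjusted p = 0.0157). The MT1G call rested on single libraries. Without Ctrl siLonp1 replicate 2 its change was 0.29 (edgeR, adjusted p = 0.0997) and without Ctrl scramble replicate 3 it was 0.31 (edgeR, adjusted p = 0.0779), in a range of adjusted p from 0.00054 to 0.0997 over 13 settings.

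In count, 5 of the 5 metallothioneins rose past the adjusted p of 0.05, as did 26.3% of all genes tested in that direction, and 1 of 5, MT2A, also passed 2-fold, as did 2.63% of all genes. Their libraries did not overlap for 5 of 5, against 33.6% of all genes higher without overlap. The median log2 change of the 5 genes was 0.82 (range 0.38 to 1.01), beside 0.01 for all genes. MT1M, the scarcest member, had 5, 10 and 10 counts in the Ctrl scramble libraries and 32, 23 and 27 in the Ctrl siLonp1 libraries. Its log2 difference was 1.83, estimated from few counts. The summed level of the 7 colon epithelium markers was 8321 to 8681 CPM in the Ctrl scramble libraries and 9175 to 9811 CPM in the Ctrl siLonp1 libraries, with 1 of 6 markers higher and 1 lower. KRT20 is left out of these counts, as it exceeded 1 CPM in siLonp1 libraries alone. The part of the markers in these results was not tested.

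The metallothioneins were also higher with siLonp1 in heated cells. In HS, MT2A had 142, 138 and 151 CPM with scramble siRNA and 376, 315 and 321 CPM with siLonp1, a log2 change of 1.23 ± 0.07 (edgeR, adjusted p = 5.8e-12). MT1E had 17.5, 16.9 and 20.7 CPM against 47.6, 34.0 and 40.1 CPM, with a log2 change of 1.15 ± 0.10 (edgeR, adjusted p = 2.4e-09). MT1X had 29.4, 28.1 and 32.8 CPM against 65.1, 51.9 and 54.7 CPM, with a log2 change of 0.93 ± 0.09 (edgeR, adjusted p = 9.2e-09). HS siLonp1 replicate 1 was the highest library of its group for all 3 genes. MT1F and MT1G changed by 1.15 ± 0.17 and 0.74 ± 0.13 on the log2 scale (edgeR, adjusted p = 4.5e-06 and 4.1e-05). MT1M, with 7, 9 and 3 counts against 28, 25 and 17, had a log2 difference of 1.92. Of the 5 metallothioneins, 5 rose past the adjusted p (28.1% of all genes), 3 of them by over 2-fold (2.56% of all genes), and in 5 of 5 the libraries did not overlap (30.4% of all genes). Their median log2 change was 1.15, beside 0.00 for all genes. The summed level of the colon epithelium markers was 8837 to 9268 CPM with scramble siRNA and 10399.7 to 10866 CPM with siLonp1, without overlap. Of the 6 markers other than KRT20, 4 rose, and CDX2, an intestinal transcription factor gene, fell by 1.38 on the log2 scale (edgeR, adjusted p = 4.2e-11). The part of these markers in the results was not tested.

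After recovery, MT2A had 272, 253 and 261 CPM with scramble siRNA and 612, 537 and 569 CPM with siLonp1, a log2 change of 1.13 ± 0.07 (edgeR, adjusted p = 1.7e-11). MT1G had 17.04, 14.9 and 14.1 CPM against 35.2, 28.2 and 37.3 CPM, a log2 change of 1.13 ± 0.12 (edgeR, adjusted p = 3.5e-08). MT1X had 53.0, 50.6 and 47.2 CPM against 109, 89.1 and 105 CPM, a log2 change of 1.01 ± 0.08 (edgeR, adjusted p = 1.4e-09). In each of these genes the lowest silenced library stood well above the highest scramble library, and HS+REC siLonp1 replicate 2 was the lowest of its group. MT1E changed by 1.06 ± 0.09 and MT1F by 1.17 ± 0.13 on the log2 scale (edgeR, adjusted p = 2.7e-09 and 1.6e-07). Past the adjusted p and 2-fold were 5 of 5 metallothioneins, against 2.84% of all genes, and past the adjusted p at any size 5 of 5, against 26.8%. Libraries did not overlap for 5 of 5, against 25.6% of all genes, and the median log2 change was 1.13, beside -0.00 for all genes. MT1X, at 2.01-fold, passed 2-fold in 9 of 13 other settings. MT1M had 23, 18 and 20 counts against 90, 67 and 69, a log2 difference of 1.99. The summed epithelium markers overlapped, at 7942 to 9132 CPM with scramble siRNA and 7903 to 9680.0 CPM with siLonp1, with 1 of 6 markers higher and 2 lower.

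**Figure D2:**
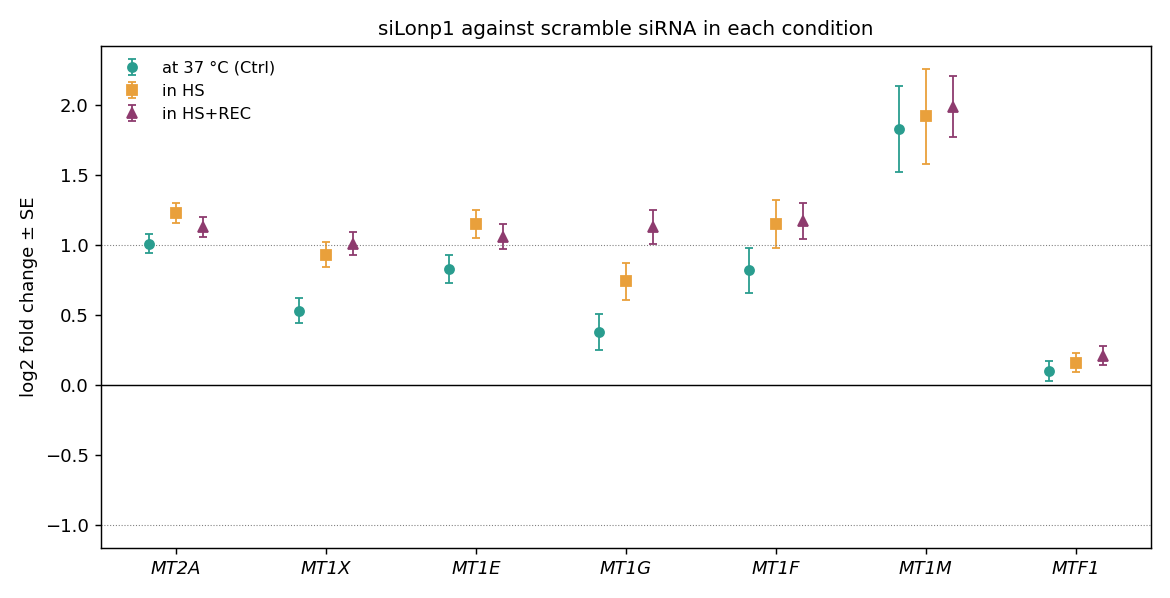
The y axis gives the log2 fold change of siLonp1 against scramble siRNA for each gene on the x axis, in Ctrl, HS and HS+REC; bars are ± 1 SE of the fit and dotted lines mark 2-fold. The metallothioneins lie between 0.38 and 1.99 in all 3 conditions, and MTF1 lies between 0.10 and 0.21.

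The heating itself was examined under each siRNA, against unheated groups that the recovery comparisons share. With scramble siRNA, 1 h at 42 °C raised MT2A from 109 to 120.0 CPM to 138 to 151 CPM, a log2 change of 0.33 ± 0.07 (edgeR, adjusted p = 0.00091). MT1X moved the other way, from 34.3 to 39.4 CPM to 28.1 to 32.8 CPM, and fell by 0.28 ± 0.09 on the log2 scale (edgeR, adjusted p = 0.015). Neither gene overlapped between the groups. The MT1X call was lost without HS scramble replicate 1 (adjusted p = 0.0546 with edgeR), HS scramble replicate 2 (0.0829) or Ctrl scramble replicate 1 (0.0918), in a range from 0.00351 to 0.0918 over 13 settings. MT1G had 8.56, 7.49 and 8.82 CPM in HS, all below its Ctrl libraries, yet its change of -0.27 ± 0.13 did not pass (edgeR, adjusted p = 0.114). The changes of MT1E and MT1F were -0.05 ± 0.10 and -0.23 ± 0.18, and the difference of MT1M was -0.29. In count, 1 of 5 metallothioneins rose (18.6% of all genes) and 1 of 5 fell (17.3%), with 0 of 5 past 2-fold upwards (2.94%). The libraries did not overlap for 1 of 5 that was higher (25% of all genes) and 2 of 5 that were lower (25.3%). The counts past the adjusted limit, 1 of 5 in each direction, lie near the shares over all genes and are no result about the metallothioneins. Without the adjustment the counts were the same, with no share of all genes beside them, and nothing is drawn from them.

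With LONP1 silenced, MT2A rose on heating from 208 to 247 CPM to 315 to 376 CPM, a log2 change of 0.56 ± 0.07 without overlap (edgeR, adjusted p = 1.1e-06). MT1E changed by 0.27 ± 0.09 (edgeR, adjusted p = 0.0259), but its libraries overlapped, with 33.0 to 34.9 CPM before and 34.0 to 47.6 CPM after heating. Without HS siLonp1 replicate 1, the highest library, the MT1E change was 0.14 (edgeR, adjusted p = 0.256), and without Ctrl siLonp1 replicate 1 or 2 it was 0.26 or 0.25 (edgeR, adjusted p = 0.0725 and 0.0742), in a range from 0.002 to 0.256 over 13 settings. MT1X, MT1G and MT1F had log2 changes of 0.12 ± 0.08, 0.10 ± 0.12 and 0.10 ± 0.15, none past the test, and the difference of MT1M was -0.20. The count was 2 of 5 metallothioneins higher (20.2% of all genes) and 0 of 5 past 2-fold (3.42%), with 1 of 5 higher without overlap (26.2%). The summed epithelium markers of HS and Ctrl, with the ranges given above, did not overlap under either siRNA. Of the 6 markers, 0 passed the test with scramble siRNA, and 2 rose and 1 fell with siLonp1. Their part in the heat results was not tested.

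The recovery hour brought a larger rise. Against HS, HS+REC scramble libraries had more MT1E, with 41.6, 41.3 and 38.8 CPM, a log2 change of 1.15 ± 0.10 (edgeR, adjusted p = 4e-09). MT1F, at 3.63, 3.80 and 3.97 CPM, rose by 1.23 ± 0.16 on the log2 scale (edgeR, adjusted p = 3.3e-06). MT1G, MT2A and MT1X rose by 0.89 ± 0.13, 0.86 ± 0.07 and 0.74 ± 0.09 (edgeR, adjusted p = 8.5e-06, 3.6e-09 and 5.7e-07). The rise in scramble cells thus included MT1X, which had been lower after the heat. With siLonp1 the log2 changes were 1.06 ± 0.09 for MT1E, 1.25 ± 0.14 for MT1F, 1.28 ± 0.12 for MT1G, 0.77 ± 0.07 for MT2A and 0.82 ± 0.08 for MT1X. Under either siRNA, 5 of 5 metallothioneins rose past the adjusted p, against 14.2% of all genes with scramble siRNA and 16.3% with siLonp1, and in 5 of 5 the libraries did not overlap (18.3% and 20.1% of all genes). Over 2-fold were 2 of 5 in scramble cells (1.06% of all genes) and 3 of 5 in silenced cells (1.83%). The log2 differences of MT1M were 1.56 under scramble siRNA and 1.64 with siLonp1. The summed epithelium markers went with siLonp1 from 10399.7 to 10866 CPM in HS to 7903 to 9680.0 CPM in HS+REC, without overlap, and 4 of 6 markers, KRT8, KRT18, CDH1 and VIL1, fell by 0.31, 0.21, 0.38 and 0.24 on the log2 scale (edgeR, adjusted p = 0.00072, 0.0212, 2e-05 and 0.00263). With scramble siRNA the sums overlapped, with 1 marker higher and 1 lower. The part of the markers in the recovery results was not tested.

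Against unheated cells, the levels after recovery were higher for each of the 5 metallothioneins. In scramble cells the log2 changes were 1.20 ± 0.07 for MT2A (edgeR, adjusted p = 4.2e-12), 1.10 ± 0.10 for MT1E (2.3e-09), 1.00 ± 0.16 for MT1F (1.4e-05), 0.62 ± 0.12 for MT1G (0.00025) and 0.46 ± 0.09 for MT1X (0.00011). In silenced cells they were 1.32 ± 0.07 for MT2A (edgeR, adjusted p = 5.3e-13), 1.33 ± 0.09 for MT1E (3.9e-11), 1.35 ± 0.14 for MT1F (1.8e-08), 1.38 ± 0.12 for MT1G (1.2e-09) and 0.94 ± 0.08 for MT1X (2.2e-09). MT1G and MT1X were the members with the smallest change in scramble cells. Past the adjusted p and 2-fold were 3 of 5 metallothioneins in scramble cells (3.78% of all genes) and 4 of 5 in silenced cells (4.51%), and past the adjusted p at any size 5 of 5 in each (21.8% and 24.6%). The MT1F change in scramble cells stood at the 2-fold limit and passed it in 6 of 13 other settings. Libraries did not overlap for 5 of 5 genes in each (26.1% and 26.8% of all genes), and the median log2 changes were 1.00 and 1.33, beside -0.00 for all genes in both. The log2 differences of MT1M were 1.27 in scramble cells and 1.44 in silenced cells. Of the 4 markers of other cell types, COL1A1 alone was tested, and it rose alongside by 1.71 and 1.78 on the log2 scale (edgeR, adjusted p = 4.6e-12 and 1.9e-12). The summed level of the 4 was 8.12 to 10.4 CPM in the unheated libraries, 13.6 to 19.2 CPM in HS and 29.6 to 35.0 CPM in HS+REC, with COL3A1 at 0, and its part in these results was not tested. Of the 6 epithelium markers 0 rose and 3 fell under either siRNA, CDX2 by 0.24 and 0.40, CDH1 by 0.25 and 0.39 and VIL1 by 0.18 and 0.30 on the log2 scale (edgeR, adjusted p from 7.5e-06 to 0.0281), while their summed levels overlapped between HS+REC and Ctrl. No share of all genes that fell stands beside this count, and the part of the epithelium markers was not tested either.

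**Figure D3:**
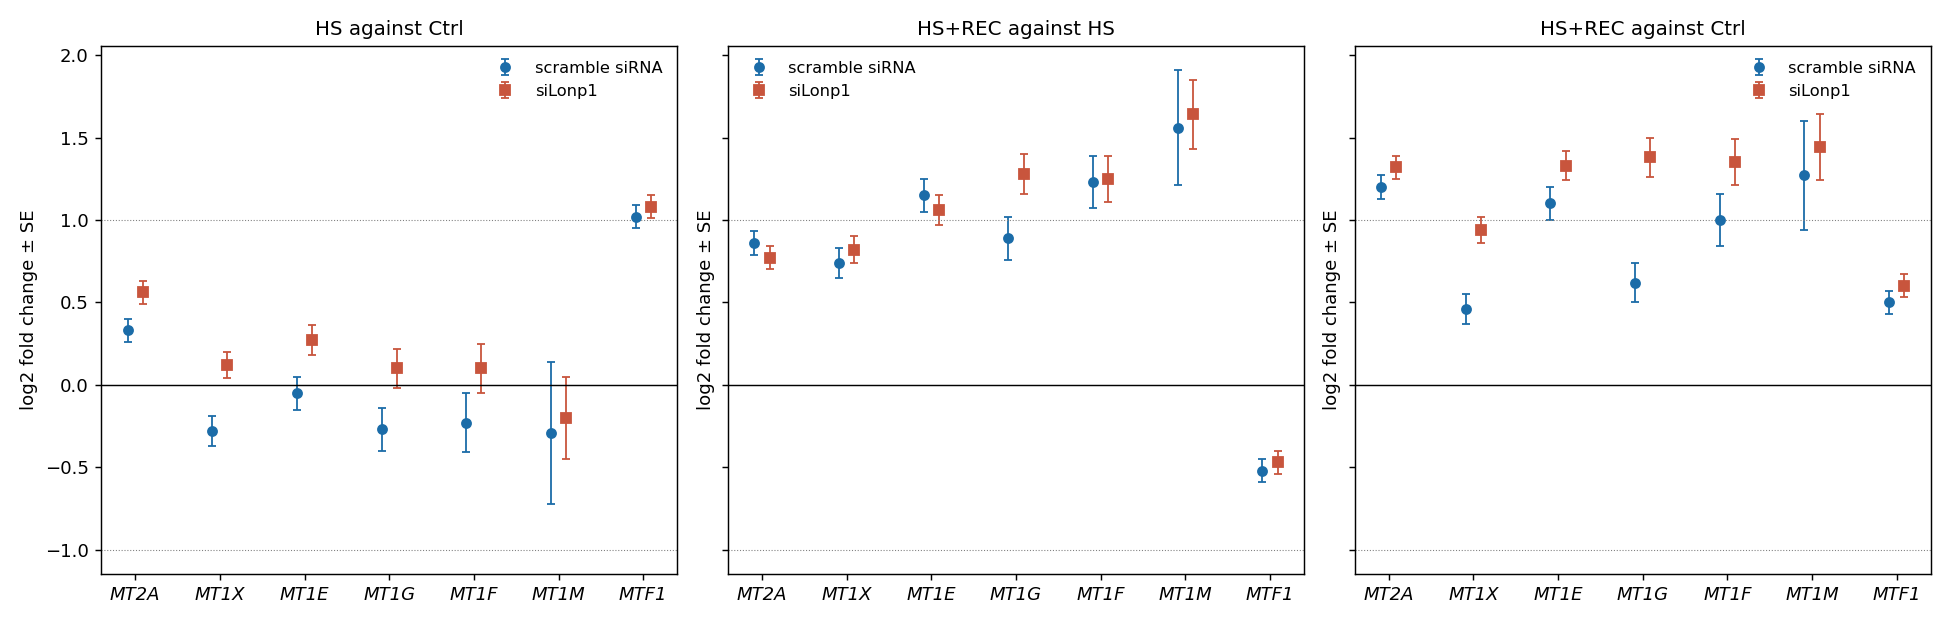
The 3 panels give the log2 fold change of HS against Ctrl, HS+REC against HS and HS+REC against Ctrl (y axis) for each gene (x axis), with scramble siRNA as circles and siLonp1 as squares; bars are ± 1 SE of the fit and dotted lines mark 2-fold. Metallothioneins lie at -0.29 to 0.56 in HS and at 0.74 to 1.64 in the recovery hour, while MTF1 rose in HS (1.02 and 1.08) and fell in the recovery hour (-0.52 and -0.47).

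Whether the response differed between the siRNAs was tested with interaction terms. For HS+REC against Ctrl, the change was larger with siLonp1 for MT1G, by 0.75 ± 0.17 on the log2 scale (edgeR, adjusted p = 0.0222), and for MT1X, by 0.48 ± 0.12 (edgeR, adjusted p = 0.0425). These are 2 of 5 metallothioneins, against 0.686% of all genes with an interaction in that direction. With single libraries left out, the MT1G interaction passed in 7 of 12 fits (0.67 to 0.87 over 19 settings, adjusted p 8.5e-05 to 0.0768). It was lost without Ctrl siLonp1 replicate 1 or 3, HS+REC siLonp1 replicate 1, or Ctrl scramble replicate 1 or 2. The MT1X interaction passed in 1 of 12 such fits, the one without HS+REC siLonp1 replicate 2 (0.41 to 0.56 over 19 settings, adjusted p 0.0037 to 0.138). For MT2A, MT1E and MT1F the HS+REC interactions were 0.12 ± 0.10, 0.23 ± 0.13 and 0.35 ± 0.21 and did not pass, and the value of MT1M was 0.16. For HS against Ctrl, 0 of 5 metallothioneins had an interaction past the adjusted p (0.475% of all genes in the upward direction). The closest were MT1X at 0.40 ± 0.12 (edgeR, adjusted p = 0.0895, range 0.0166 to 0.27 over 19 settings), MT1E at 0.31 ± 0.14 and MT2A at 0.22 ± 0.10. Their unadjusted p values were 0.00312, 0.0335 and 0.0422 (edgeR), with no share of all genes at an unadjusted limit beside them. With DESeq2 MT1X alone passed (adjusted p = 0.0385), and it passed the adjusted p in 4 of the 19 settings, DESeq2 included.

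MTF1, the factor itself, was highest in the HS groups, whereas the metallothioneins were highest in HS+REC siLonp1. Its Ctrl scramble libraries had 31.1, 28.8 and 32.2 CPM, its HS scramble libraries 65.0, 64.7 and 57.3 CPM and its HS+REC scramble libraries 45.6, 46.4 and 38.3 CPM. The corresponding siLonp1 libraries had 34.0, 32.5 and 32.4 CPM, then 65.8, 72.3 and 70.4 CPM, then 50.4, 51.3 and 48.7 CPM. No neighbouring groups overlapped in the order Ctrl scramble, Ctrl siLonp1, HS+REC scramble, HS+REC siLonp1, HS scramble and HS siLonp1, although the highest Ctrl scramble library, at 32.2 CPM, lay close to the lowest Ctrl siLonp1 library, at 32.4 CPM. Heating raised MTF1 by 1.02 ± 0.07 on the log2 scale with scramble siRNA (edgeR, adjusted p = 8.9e-11) and by 1.08 ± 0.07 with siLonp1 (edgeR, adjusted p = 2.4e-11). The first stood at the 2-fold limit and passed it in 9 of 13 other settings, and the second in 13 of 13. The recovery hour lowered it by 0.52 ± 0.07 and 0.47 ± 0.07 (edgeR, adjusted p = 5.2e-06 and 1.4e-05), in a direction shared by 12.7% and 15.6% of all genes past the adjusted p. It remained above the unheated level by 0.50 ± 0.07 and 0.60 ± 0.07 (edgeR, adjusted p = 5.7e-06 and 2.6e-07). With siLonp1, MTF1 differed by 0.10 ± 0.07 in Ctrl (edgeR, adjusted p = 0.259) and by 0.16 ± 0.07 in HS (0.0665), and rose by 0.21 ± 0.07 in HS+REC (0.0186). The last call was lost without HS+REC scramble replicate 3, its lowest library, where the change was 0.12 (edgeR, adjusted p = 0.145), and without HS+REC siLonp1 replicate 2, where it was 0.19 (edgeR, adjusted p = 0.0515). Over 13 settings its adjusted p ran from 0.00905 to 0.145. The interactions of MTF1 were 0.05 ± 0.10 for HS and 0.10 ± 0.10 for HS+REC.

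Over the 18 libraries, the log2 CPM of the 6 metallothioneins correlated with each other at Pearson r of 0.89 to 0.98, and with MTF1 at 0.07 to 0.37. These libraries share groups, so the values mostly restate the group means. Around the group means, r was 0.38 to 0.92 among the 5 metallothioneins other than MT1M, lowest for MT1F with MT1G and highest for MT1E with MT1X, but -0.48 to -0.05 for MT1M with the other 5 and -0.46 to -0.24 for MTF1 with the 5 metallothioneins other than MT1M. The 5 tested genes with the pattern most like that of MT2A were AREG (amphiregulin, an EGF receptor ligand) at r of 0.990, RP9 at 0.981, COPS7B (a COP9 signalosome subunit) and CNNM4 (a magnesium transporter) at 0.979 and TMCO3 at 0.974, over 18 libraries. AREG ranged over group means of 7.63 to 58.7 CPM. For MTF1 they were the transcription factor genes SIX4 at 0.983, EGR2 at 0.980, ZNF776 at 0.979, ZNF281 at 0.977 and ZKSCAN4 at 0.975.

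The table held 10 other metallothionein genes, 2 of which were tested, MT1A and MT1H. Both lie within the same cluster, and they differed in direction. MT1H exceeded 1 CPM in the 6 HS+REC libraries and 2 HS siLonp1 libraries alone, and so passed the filter through groups where it was high. It had 9, 14 and 7 counts in Ctrl scramble, 30, 20 and 12 in HS scramble and 84, 83 and 84 in HS+REC scramble. With siLonp1 it had 16, 8 and 6 counts, then 53, 23 and 44, then 234, 148 and 246. Because the groups where it was high let it pass, its values are given with no test and no conclusion is drawn from them. Against Ctrl its log2 differences were 3.05 in HS+REC scramble, 4.35 in HS+REC siLonp1 and 2.01 in HS siLonp1. In HS scramble the difference was 1.14. The siLonp1 differences of MT1H were 1.01 after heat and 1.43 after recovery, and 0.13 in unheated cells.

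MT1A, at 3.58 to 6.38 CPM, was lower with siLonp1 in each condition, by log2 changes of -0.34 ± 0.11, -0.28 ± 0.12 and -0.39 ± 0.12 in Ctrl, HS and HS+REC (edgeR, adjusted p = 0.0175, 0.0488 and 0.00727). The HS call held in only 1 of 6 fits with a library left out, against 4 of 6 in Ctrl and 5 of 6 in HS+REC. It held in 3 of 7 other settings, being lost with a replicate block and with DESeq2, against 7 of 7 in Ctrl and in HS+REC. The heat and recovery comparisons of MT1A did not pass. The 8 other metallothionein genes were not tested. MT1L, MT3 and MT1DP had at most 0.849, 0.453 and 0.199 CPM, MT1B and MT1JP stood at 0 in most groups, and MT1HL1, MT1IP and MT4 were at 0 counts in all 18 libraries.

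**Figure D4:**
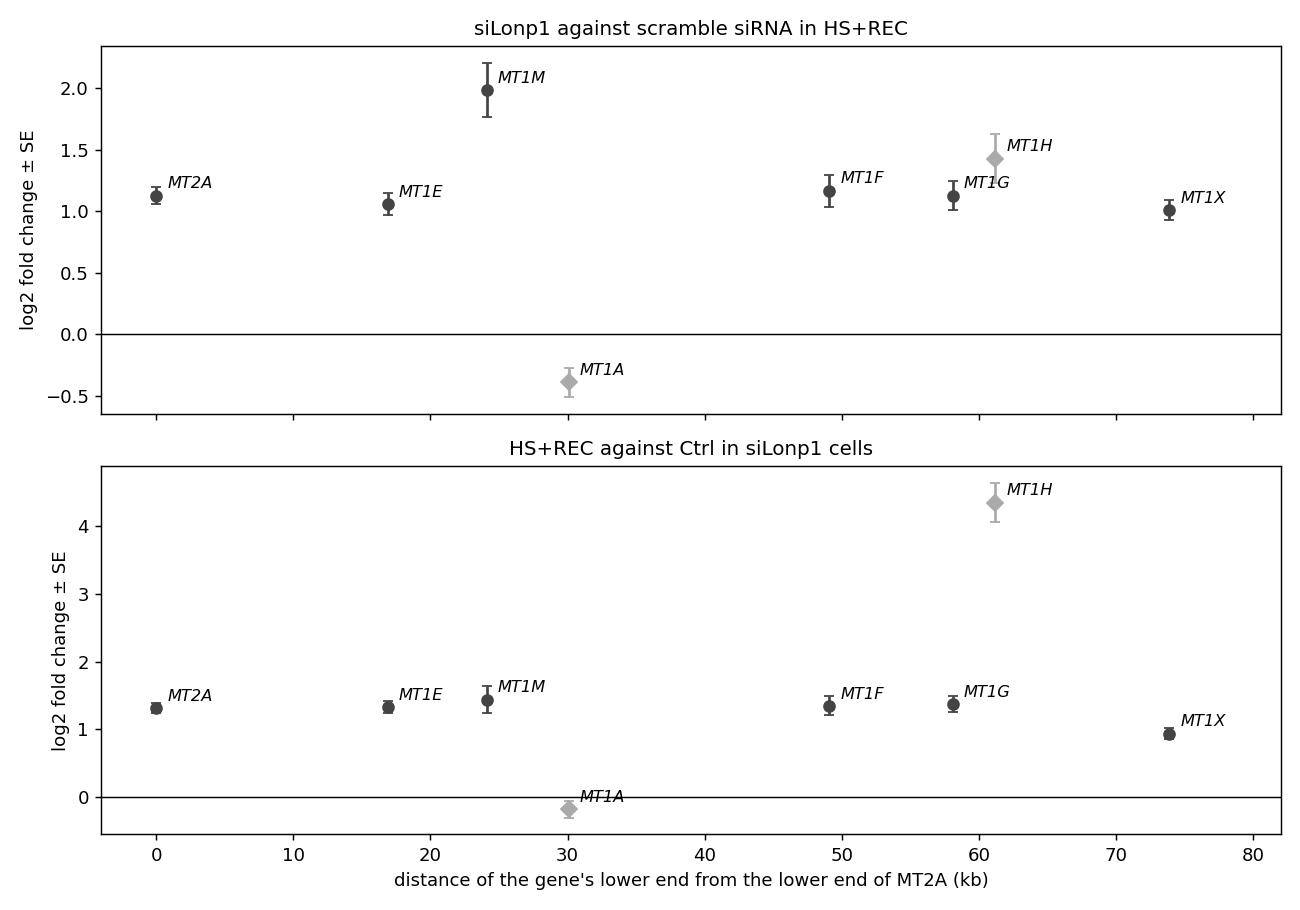
The x axis gives the distance in kb of each gene's lower end from that of MT2A, and the y axes give the log2 fold change ± SE of siLonp1 against scramble siRNA in HS+REC (top) and of HS+REC against Ctrl in siLonp1 cells (bottom). Circles are the 6 metallothioneins described and diamonds are MT1A and MT1H; MT1A, at 30.1 kb, is the gene below 0 in both panels (-0.39 and -0.18, the latter not past the test).

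Zinc and copper transport genes were read as lists. Their counts stand beside the share of all genes tested, and counts near that share are no result about a list. Of 10 zinc exporters 7 were tested. Without SLC30A2, which exceeded 1 CPM in HS+REC libraries alone, 2 of 6 rose (18.6% of all genes) and 0 fell (17.3%) in HS scramble, with a median log2 change of -0.03. SLC30A1, the exporter at the plasma membrane and a known MTF1 target, had 69.1 to 72.7 CPM in Ctrl scramble, 97.0 to 112 CPM in HS scramble and 100.4 to 112 CPM in HS+REC scramble. With siLonp1 it had 64.5 to 69.1 CPM, then 128 to 135 CPM, then 117 to 159 CPM. It was therefore already up at the end of the heat, by 0.59 ± 0.08 and 0.95 ± 0.08 on the log2 scale with scramble siRNA and siLonp1 (edgeR, adjusted p = 4.4e-06 and 1.6e-09), and changed by -0.02 ± 0.08 and 0.09 ± 0.08 in the recovery hour. The siLonp1 differences of SLC30A1 were -0.06 ± 0.08 in unheated cells, 0.30 ± 0.08 after heat and 0.40 ± 0.08 after recovery (edgeR, adjusted p = 0.54, 0.00299 and 0.00021). Its HS+REC interaction of 0.47 ± 0.12 (edgeR, adjusted p = 0.0369) held in 2 of 12 fits with a library left out. SLC30A2 averaged 0.361 and 0.435 CPM in Ctrl and 0.887 and 0.985 CPM in HS+REC, with scramble siRNA and siLonp1, and is given with no test. SLC30A3 was higher with siLonp1 by 0.63 ± 0.13, 0.47 ± 0.13 and 0.57 ± 0.13 in Ctrl, HS and HS+REC (edgeR, adjusted p = 0.00026, 0.00389 and 0.00091). With siLonp1, 3 of the 6 exporters rose in unheated cells and 4 in each of the heated conditions, none of them by over 2-fold, and 0 fell (medians of 0.13, 0.22 and 0.21). Of all genes, 26.3%, 28.1% and 26.8% rose and 22.9%, 26.7% and 27.3% fell with siLonp1 in Ctrl, HS and HS+REC, which are the shares for the lists that follow too.

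Of 14 zinc importers 12 were tested. With siLonp1, 3 rose and 3 fell in Ctrl, 3 rose and 4 fell in HS, and 2 rose and 4 fell in HS+REC, with medians of -0.00, -0.10 and -0.13 on the log2 scale. These counts of 12 lie near the shares over all genes. SLC39A8, which carries zinc and manganese into the cell, was lower in each, with log2 changes of -1.01 ± 0.09, -1.14 ± 0.10 and -1.05 ± 0.10 (edgeR, adjusted p = 8.1e-09, 1.7e-09 and 5e-09). The Ctrl value stood at the 2-fold limit and passed it in 10 of 13 other settings, the HS and HS+REC values in 13 of 13. It did not pass in any heat or recovery comparison. SLC39A5 was lower with siLonp1 by log2 changes of -0.85 ± 0.10, -0.67 ± 0.10 and -0.91 ± 0.10 (edgeR, adjusted p = 4.5e-07, 5.4e-06 and 5.4e-08). The largest change of SLC39A3 was 0.63 ± 0.10, in the recovery hour with siLonp1 (edgeR, adjusted p = 4.1e-05). Of 12 copper genes 11 were tested, and with siLonp1 3 rose and 2 fell in Ctrl, near the shares over all genes, with a median of -0.02. STEAP3, a metalloreductase of endosomes, was higher with siLonp1 by 1.23 ± 0.07, 1.26 ± 0.08 and 1.32 ± 0.08 in Ctrl, HS and HS+REC (edgeR, adjusted p = 7.3e-12, 1.2e-11 and 7.2e-12) and was lower after heat and recovery. STEAP2, a related metalloreductase, and SOD1, the cytosolic copper-zinc superoxide dismutase, rose in HS+REC siLonp1 against Ctrl by 0.69 ± 0.11 and 0.67 ± 0.06 on the log2 scale (edgeR, adjusted p = 1.6e-05 and 3.4e-09).

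Genes around the cluster were also read as a list. Of 9 chromosome 16 neighbours 7 were tested. Without GNAO1, which exceeded 1 CPM in scramble libraries alone, 1 of 6 rose and 1 of 6 fell with siLonp1 in each of Ctrl, HS and HS+REC, with medians of -0.03, -0.04 and -0.01 on the log2 scale. These counts of 6 lie near the shares over all genes. HERPUD1, an endoplasmic reticulum stress gene 323.6 kb from MT2A, rose in HS+REC against Ctrl by 1.70 ± 0.08 and 2.45 ± 0.08 but was lower with siLonp1 in Ctrl, by -0.79 ± 0.08 (edgeR, adjusted p = 2.1e-08). GNAO1, which encodes a G protein subunit, averaged 1.35 CPM in HS scramble and 0.797 CPM in HS siLonp1, given with no test. OGFOD1 rose by 0.35 ± 0.05 in the recovery hour with siLonp1 (edgeR, adjusted p = 2.3e-05). All 9 factors known to bind metallothionein promoters or to act with MTF1 were tested. With siLonp1, 2 rose and 1 fell in Ctrl, 0 rose and 1 fell in HS, and 3 rose and 2 fell in HS+REC, with medians of 0.08, 0.01 and 0.09. In Ctrl and HS+REC these counts of 9 lie near the shares over all genes. NFE2L2, the oxidant response factor, rose by 0.82 ± 0.06 and HSF2 fell by 0.45 ± 0.07 in HS+REC scramble against Ctrl (edgeR, adjusted p = 3.6e-11 and 1e-05). HSF1, the main heat shock factor, had log2 changes of -0.24 ± 0.07, -0.43 ± 0.07 and -0.39 ± 0.07 with siLonp1 in Ctrl, HS and HS+REC (edgeR, adjusted p = 0.00754, 2.4e-05 and 6.1e-05). NR3C1, the glucocorticoid receptor, had means of 0.839 CPM in Ctrl scramble, 2.07 CPM in HS+REC scramble and 4.44 CPM in HS+REC siLonp1. Against Ctrl it was higher in HS+REC by 1.30 ± 0.17 with scramble siRNA and 2.36 ± 0.16 with siLonp1 (edgeR, adjusted p = 1.8e-06 and 2.6e-11).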

How the data were processed

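RNA-seq of 18 SW620 libraries gave 1 table of raw counts per gene (26485 genes), which the authors deposited after alignment with STAR 2.7.3a to hg38 and counting over genes of the UCSC annotation with featureCounts (Rsubread), as the study's methods and the submitters' processing notes say. R 3.6.3 and edgeR are named there for the analysis. The annotation's version, the strand setting and the handling of reads with several placements are not given in the sources used here. Libraries were made with a stranded kit.

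From these counts, the 12832 genes whose CPM exceeded 1 in 3 or more libraries were scaled with TMM factors (0.934 to 1.06) and tested with the edgeR 4.0.16 quasi-likelihood test in R 4.3.3, in 1 model of 6 group means. Adjusted p values are Benjamini-Hochberg over all genes tested. A gene was called at an adjusted p of at most 0.05 and more than a 2-fold change. Share-of-genes values beside counts are over the 12832 genes. Fold changes are on the log2 scale with a prior count of 0.125. Each SE is the size of the log2 change divided by the square root of the F statistic of its test. Intervals of group levels are SDs over 3 libraries. The p values instead use a spread between libraries that is estimated over all 18 libraries of the 6 groups.

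Groups came from the sample labels. No 2 replicates agreed within sampling noise (chi-square per degree of freedom 3.48 to 25.8). Positions and mRNA lengths (MANE transcripts) were from GENCODE 44 on hg38 and promoters from RefSeq on GRCh38.p14. The members and all lists (other metallothioneins, zinc exporters, zinc importers, copper handling, chromosome 16 neighbours, promoter factors and cell type markers) were chosen with earlier results of these data known. All members were named, and list genes were named when past the test and 2-fold, or among the 3 genes of their list with the largest change between any groups compared. HSF1, the cell type markers and the 8 untested metallothioneins were named, and SLC30A2, GNAO1 and KRT20 left out of list counts, after their values were seen. Alternatives were RLE or library size scaling, other count filters, DESeq2 1.42.0, a replicate block, fits of only the groups compared, other thresholds and leaving out each library. The scripts were tested on simulated data.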

Additional observations from a re-analysis of the deposited data

Results flagged for a closer look

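Results are listed here because the response to heat or recovery differed between the siRNAs by an interaction test (edgeR, adjusted over all genes). For HS+REC against Ctrl, the log2 change was larger with siLonp1 by 0.75 ± 0.17 for MT1G (adjusted p = 0.0222) and by 0.48 ± 0.12 for MT1X (adjusted p = 0.0425). With a library left out, that of MT1G passed in 7 of 12 fits and that of MT1X in 1 of 12.

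Among the listed genes, the same interaction was 0.47 ± 0.12 for SLC30A1 (edgeR, adjusted p = 0.0369), 1.06 ± 0.25 for NR3C1 (adjusted p = 0.0273) and 0.75 ± 0.11 for HERPUD1 (adjusted p = 0.00143). The SLC30A1 interaction passed in 2 of 12 fits with a library left out. The NR3C1 interaction passed in 5 of 12 fits with a library left out, at 0.89 to 1.22, and that of HERPUD1 in 12 of 12, at 0.66 to 0.82. For HS against Ctrl, HERPUD1 had an interaction of 0.75 ± 0.11 (edgeR, adjusted p = 0.00053). HERPUD1 fell by 0.79 with siLonp1 in Ctrl, and its changes with siLonp1 in HS and HS+REC were -0.05 and -0.04.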

How the results depend on the processing

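The alternatives gave 675 log2 changes of the 7 genes, which hold only the lowest and the highest of the fits with a library left out. Of these, 657 kept their direction and their side of the adjusted p of 0.05, 8 lost it, 5 gained it and 5 changed sign. Fits between the lowest and the highest lost further calls outside this tally. Among them were fits of the MT1X HS+REC interaction, which passed in 1 of 12. Counts of genes called depended on values close to 2-fold. The counts here are over all 7 genes and so include MT1M. That gene passed the filter through HS+REC siLonp1 alone and is not in the counts of the report. These counts have no share of all genes beside them and support nothing about the genes. Without a fold change limit the counts became 3 (from 1) for HS in scramble, 3 (from 1) for HS in siLonp1, 7 (from 4) for HS+REC in scramble, 7 (from 3) and 7 (from 4) for HS+REC against HS in scramble and siLonp1, 6 (from 2) for siLonp1 in Ctrl and 2 (from 0) for the HS+REC interaction. For siLonp1 in Ctrl the count was 1 with RLE size factors, library size only, DESeq2 or CPM above 1 in all 18 libraries. It was 0 in the fit of only the groups compared, which like the filter on all 18 libraries left MT1M untested. With a library left out the count was 1 to 2. For HS in scramble it was 0 with library size only and 0 to 1 with a library left out, being 0 without Ctrl scramble replicate 2 or HS scramble replicate 1 or 2. The sign changed, among values that passed no test, for MT1E in HS scramble (0.01 without HS scramble replicate 2), MT1G in HS siLonp1 (-0.07 without HS siLonp1 replicate 1, up to 0.19 with other libraries left out), the HS interactions of MT1M (-0.11, up to 0.34) and MTF1 (-0.01, up to 0.10) without HS scramble replicate 3, and the HS+REC interaction of MT1M (-0.02 without Ctrl scramble replicate 3, up to 0.39). The cause was not tested. Library size only shifted the median of all genes by at most -0.097 on the log2 scale.

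A replicate block changed no call of the 77 log2 changes at the adjusted p. With it the genes called were 1 each for HS in scramble and in siLonp1, 3 and 5 for HS+REC in scramble and in siLonp1, 3 and 4 for HS+REC against HS, 2, 4 and 6 for siLonp1 in Ctrl, HS and HS+REC, and 0 for both interactions. The replicate numbers did not pair the libraries, since 10 of 45 same-number pairs correlated above 0.1 (range -0.379 to 0.462) and 6 of 18 libraries were closest to their own number. Depth limits MT1M, with 3 to 10 counts in the Ctrl and HS scramble libraries.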
